A study of Mus musculus with 20 samples.

Results

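The Misc population of mouse leg muscle was compared between DKO and WT across all genes, using the 4 libraries titled Misc_DKO and the 4 titled Misc_WT. These are 8 of the 20 libraries of the series, which also holds FAP and SMP populations of both genotypes. All came from quadriceps, tibialis anterior and gastrocnemius, and RNA was counted per gene after paired-end sequencing. The labels give DKO and WT without strain, age, sex or the names of the deleted genes. The design text lists FB where the sample labels write Misc or MISC, and no label ties both names, so Misc is used here. From background, DKO is read as loss of desmin (Des) and nesprin 1 (Syne1), as an assumption. The replicates are called biological in the design text, and whether a library came from 1 animal or a pool is not given, so p-values measure the spread between these samples.

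As background, tendon and the connective tissue at muscle ends are built by fibroblasts that secrete collagen fibrils and the small proteoglycans and thrombospondins that space them. These cells express the membrane protein tenomodulin (Tnmd) and the transcription factors scleraxis (Scx) and mohawk (Mkx), and they respond to load and to TGF-beta. Fibro/adipogenic progenitors (FAP), the other mesenchymal cells of muscle, lie between fibres and carry Ly6a and Pdgfra.

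The Misc libraries carried the tendon markers. In WT, Tnmd stood at 2203 ± 362 CPM (counts per 1e6 of the scaled library total, mean ± SD, n = 4), against a mean of 41.2 in FAP and 239 in SMP. Scx was at 78.1 ± 12.4 CPM against 0.725 in FAP, and Mkx at 183 ± 12 against 1.75. Of the FAP markers, Ly6a was at 5.47 ± 2.07 CPM in Misc WT and 612 in FAP, but Pdgfra was abundant in both, at 449.8 ± 35.2 and 1210. Summed over 15 FAP markers, the Misc level was 34900 to 38500 CPM in DKO and 38000 to 42200 in WT. Among defining markers of other cells, Cd3e, Plin1 and Hbb-b1 had 0 counts in all 8 Misc libraries, and the leukocyte marker Ptprc had 0 to 2. Of the adipocyte markers, Adipoq had 0 to 2 counts and Cidec and Lep 0 to 1. The satellite cell marker Pax7 had 0 to 26 counts and the endothelial marker Cdh5 34 to 234. Summed over 12 tested endothelial markers, the level was 51.7 to 86.5 CPM in DKO and 96.6 to 138 in WT, and over 12 Schwann cell markers it was 54.6 to 75.3 and 102 to 124. Over 18 muscle fibre markers it was 74.2 to 129 CPM in DKO and 58.0 to 69.5 in WT, and over 13 leukocyte markers 19.8 to 38.6 and 13.7 to 19.6. Of 10 adipocyte list genes 5 were tested (Fabp4, Cd36, Cebpa, Lpl and Pparg), and over these it was 876 to 1490 CPM in DKO and 1560 to 2260 in WT. Over 12 cartilage and bone markers it was 228 to 459 and 554 to 600. These 6 sums did not overlap between genotypes. The endothelial sum included Tek, the 1 endothelial marker called, which held much of that sum. In bulk samples, fewer cells of a type and less RNA per cell cannot be told apart.

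Sex-linked transcripts differed between the genotypes. Xist, the RNA of the inactive X chromosome in females, was at 374, 429 and 447 CPM in DKO libraries 1, 2 and 4, where Ddx3y, Kdm5d, Uty and Eif2s3y of the Y chromosome summed to 0.124, 0.239 and 0.129 CPM. DKO library 3 had the reverse, with Xist at 0.36 CPM and the Y-linked sum at 167. Each of the 4 WT libraries held both kinds, with Xist at 90.5 to 229 CPM and Y-linked transcripts at 112 to 167. The labels name no sex and no pooling. Genotype was thus partly confounded with these transcripts, and WT libraries with both kinds and DKO libraries with 1 kind may be unlike units. The analysis was therefore repeated with the Y-linked sum as a covariate, an alternative chosen after these values were seen. Among the Misc DKO libraries this covariate varies almost only through library 3. In that fit 38 genes were called for the covariate, 12 of them among the Misc calls. DKO library 3 also stood apart on the second principal component of the 8 libraries (13.5% of the variance, 38.5 against −20 to 8.8 for the others). The first component (44.6%) separated DKO, at −41.8 to −22.9, from WT, at 30.3 to 32.5. Library totals were 8360658 to 8492813 counts in DKO and 9566333 to 17730111 in WT.

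**Figure D1:**
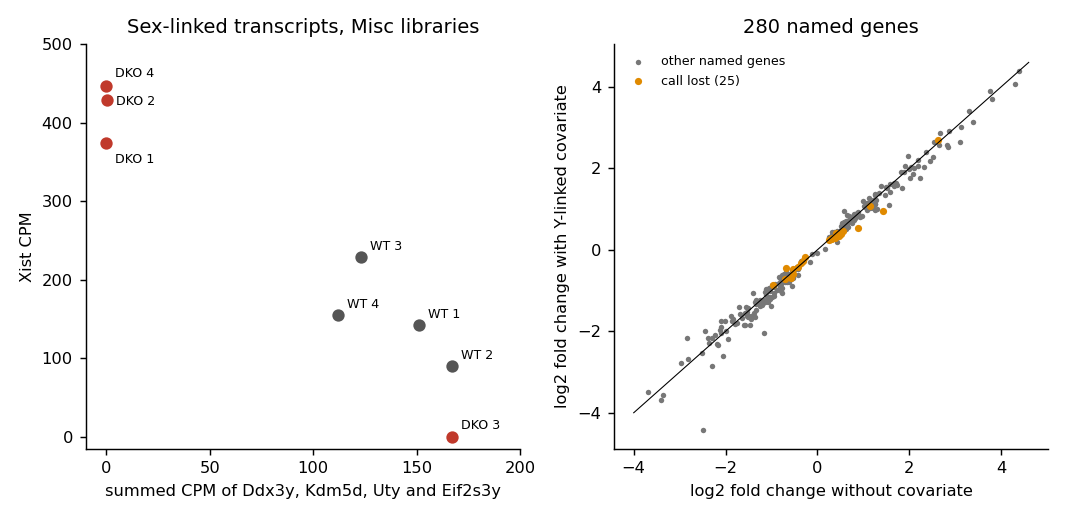
Left, Xist CPM against the summed CPM of 4 Y-linked genes in each Misc library (red DKO, grey WT): 3 DKO libraries lie near 0 on the Y-linked axis, DKO 3 lies at 167 with Xist at 0.36, and the 4 WT libraries hold both kinds. Right, log2 fold changes (DKO over WT) of 280 named genes without and with the Y-linked covariate, with the line of equality. The 25 genes in orange lost their call with the covariate.

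Des and Syne1 were lower in DKO. Des (Entrez 13346, chromosome 1, 75360292 to 75368579 in GRCm38.p6) was at 1.37, 2.27, 1.56 and 1.42 CPM in DKO libraries 1 to 4 and at 4.66, 3.94, 4.74 and 2.16 in WT. WT library 4 lay below DKO library 2, and the log2 fold change was −1.25 ± 0.25 (± standard error; edgeR quasi-likelihood test, adjusted p = 0.000943). For Syne1 (Entrez 64009; chromosome 10, 5020192 to 5550692) the DKO libraries held 67.1, 62.1, 59.2 and 75.5 CPM and the WT libraries 129.8, 91.8, 117 and 85.5, without overlap (−0.69 ± 0.12, adjusted p = 0.000282). Neither was at 0, and counts over a whole gene do not show a deleted part. Of 89 tested genes starting within 10 Mb of Des, 20 were called (22.5%), 16 of them lower, and of 47 around Syne1, 8 were called (17.0%), 7 of them lower. Over all genes tested, 18.7% were called and 9.55% were called lower.

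Of 14179 genes tested, 2652 differed between Misc DKO and WT at an adjusted p below 0.05 (18.7%) and are said to be called. Of these, 1298 were higher (9.15% of genes tested) and 1354 lower (9.55%) in DKO. The counts of list members given below are to be read against these shares. At least a 2-fold change was found for 784 (5.53%), 340 higher and 444 lower, and at least a 4-fold change for 194, 115 higher and 79 lower. The 2 groups of 4 libraries did not overlap for 3005 genes (21.2%), of which 1407 were higher (9.92%), 1598 lower (11.3%) and 2219 called. With the Y-linked covariate 1985 genes were called, 939 higher and 1046 lower, among them 1783 (67.2%) of the 2652, and none of the 2652 changed sign. Without DKO library 3, 2392 were called and 2141 of the 2652 kept their call. Without WT library 1, the deepest of the 8, 861 genes were higher. The filter on low counts ran over all 6 groups, so the 14179 include genes hardly found in Misc. In a fit of the 8 Misc libraries alone, 12353 genes were tested and 2495 called. The median log2 fold change over all 14179 genes was 0.01.

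**Figure D2:**
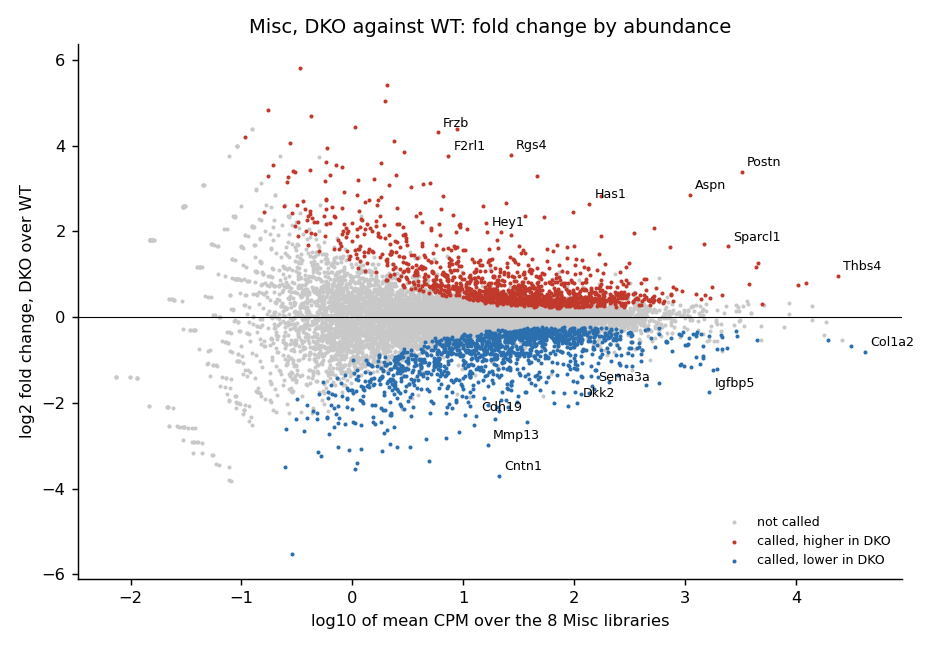
Log2 fold change of DKO over WT against log10 of the mean CPM over the 8 Misc libraries, 1 point for each tested gene with a count in Misc. Red points were called higher and blue points lower, and some genes are labelled by symbol: Postn combines a high level with a log2 change of 3.40, while Thbs4 and Col1a2 lie at the highest levels with changes of 0.97 and −0.81.

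Among the largest changes were genes of G-protein signalling, matrix and synaptic adhesion. F2rl1, a receptor cleaved by trypsin-like proteases, was at 10.8, 14.2, 15.9 and 13.9 CPM in DKO and 1.18, 1.26, 0.729 and 0.681 in WT (3.77 ± 0.25, adjusted p = 3.63e-10). Rgs4, which switches off G-protein signals, rose from 3.47 ± 1.56 to 50.0 ± 12.2 CPM (3.79 ± 0.30). Has1, a hyaluronan synthase, was at 191, 309.9, 194 and 249 CPM in DKO and 24.3, 42.4, 53.3 and 31.0 in WT (2.65 ± 0.29, adjusted p = 8.12e-06). For all 3 the lowest DKO library lay several times above the highest WT library. The transcription factor Nfe2l3 (3.12 ± 0.32), the flavin monooxygenase Fmo2 (2.66 ± 0.29) and the channel subunit Kcnmb2 (2.83 ± 0.33) also rose. The long non-coding RNA AI506816 rose from 0.766 ± 0.409 to 16.7 ± 5.71 CPM. Ifi202b, an interferon-inducible gene, was at 40.8, 137, 80.5 and 76.7 CPM in DKO and 12.3, 12.5, 6.74 and 1.14 in WT (3.29 ± 0.89, adjusted p = 0.0187). Its libraries varied widely within each genotype, and its call was lost without DKO library 2 (adjusted p = 0.0508) or WT library 4 (0.0518) and with a replicate block (0.0772).

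The largest falls included several surface and signalling genes at moderate levels. Contactin 1 (Cntn1), an adhesion molecule of the immunoglobulin superfamily, was at 2.12, 3.59, 3.00 and 3.24 CPM in DKO and 28.2, 60.3, 22.3 and 45.1 in WT (−3.70 ± 0.47, adjusted p = 4.39e-05). St6galnac2, a sialyltransferase, was at 2.24, 2.40, 1.68 and 0.518 CPM and 13.1, 11.4, 12.2 and 12.2 (−2.82 ± 0.29, adjusted p = 2.14e-07). Neither overlapped between genotypes. The collagenase Mmp13 (−2.98 ± 0.48), the amino acid transporter Slc38a4 (−2.29 ± 0.33), the Rap activator Rasgrp2 (−2.23 ± 0.21) and placental growth factor (Pgf, −2.10 ± 0.23) fell. So did the carboxylesterase Ces1d (−2.38 ± 0.27), Susd5 (−2.18 ± 0.25) and Dpysl5 (−2.12 ± 0.24), a member of the collapsin response family.

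Abundant matrix transcripts moved in both directions. Thbs4 (thrombospondin 4) was at 29310, 29580, 28370 and 39110 CPM in DKO and 17290, 15190, 16950 and 15050 in WT (0.97 ± 0.17, adjusted p = 0.000182), and Col1a2 at 36800, 26460, 26030 and 31810 in DKO and 51210, 50880, 47950 and 61600 in WT (−0.81 ± 0.20, adjusted p = 0.00502). Both were without overlap, and they moved in opposite directions. Col1a1 fell with Col1a2 (−0.68 ± 0.20, adjusted p = 0.0181), but its call was lost without DKO library 2 (adjusted p = 0.0691), DKO library 3 (0.06) or WT library 4 (0.0596), and with a length offset (0.0544). Col3a1, at 7613 ± 827 CPM in WT and 9507 ± 1360 in DKO, did not pass (0.32 ± 0.16, adjusted p = 0.169). Mmp2 (gelatinase A, 0.77 ± 0.17) and the cartilage protein Cilp (1.16 ± 0.18) rose from 2760 ± 145 to 4692 ± 378 CPM and from 2666 ± 293 to 5972 ± 593 CPM. Kera (keratocan, −1.22 ± 0.34, adjusted p = 0.0212) and the matrix protein Abi3bp (−0.71 ± 0.12) fell. The call for Kera was lost without DKO library 2 (adjusted p = 0.0675), DKO library 3 (0.0503) or WT library 1 (0.0541). Sparc, a collagen-binding glycoprotein, fell from 22890 ± 3925 to 15730 ± 1851 CPM (−0.54 ± 0.17, adjusted p = 0.0266), a call lost with the Y-linked covariate (adjusted p = 0.117) and without DKO library 2 (0.0893) or 3 (0.0587) or WT library 2 (0.0566) or 4 (0.0883). All genes called higher together took 20.17 to 22.87% of counts in DKO and 12.28 to 12.67% in WT, and those called lower took 14.43 to 17.63% and 24.2 to 27.63%. These shares describe genes chosen by the same values.

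Many genes of protein synthesis were higher in DKO. Of 78 cytosolic ribosomal protein genes, 58 rose and 0 fell, with a median log2 fold change of 0.44. Of 27 ribosome biogenesis genes, 12 rose and 0 fell (median 0.32), and of 59 translation factors 18 rose and 3 fell (0.21). Rpl10a was at 234, 242, 251 and 270.3 CPM in DKO and 174, 177, 175 and 181 in WT (0.50 ± 0.09, adjusted p = 0.000321), and Rpl37 at 109.6, 114, 94.3 and 105 and 74.5, 77.2, 61.3 and 64.9 (0.60 ± 0.12, adjusted p = 0.000794). The groups did not overlap for either, and each change was below 2-fold, as for all 58. The elongation factor subunit Eef1g (0.50 ± 0.09) and the initiation factor subunits Eif3e (0.54 ± 0.11) and Eif3h (0.39 ± 0.09) rose. The nucleolar methyltransferases Nop2 (0.68 ± 0.13) and Fbl (0.63 ± 0.13) and the pre-ribosome proteins Bop1 (0.56 ± 0.14) and Nop16 (0.70 ± 0.15) rose too. With the Y-linked covariate the called members numbered 36, 5 and 9 for the 3 lists, and without DKO library 2 or WT library 1 ribosome biogenesis had 6. Translation factors had 13 without DKO library 4 or WT library 1. Ribosomal protein transcripts are short, and longer transcripts tended to have lower fold changes (over 13666 genes, not independent of each other, Spearman's rho was −0.16). Among the 3418 genes with the shortest transcripts 10.6% were higher and 5.65% lower, against 7.73% and 15.9% among the 3416 with the longest. With a length offset 48 ribosomal protein genes were called, with a median of 0.32.

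**Figure D3:**
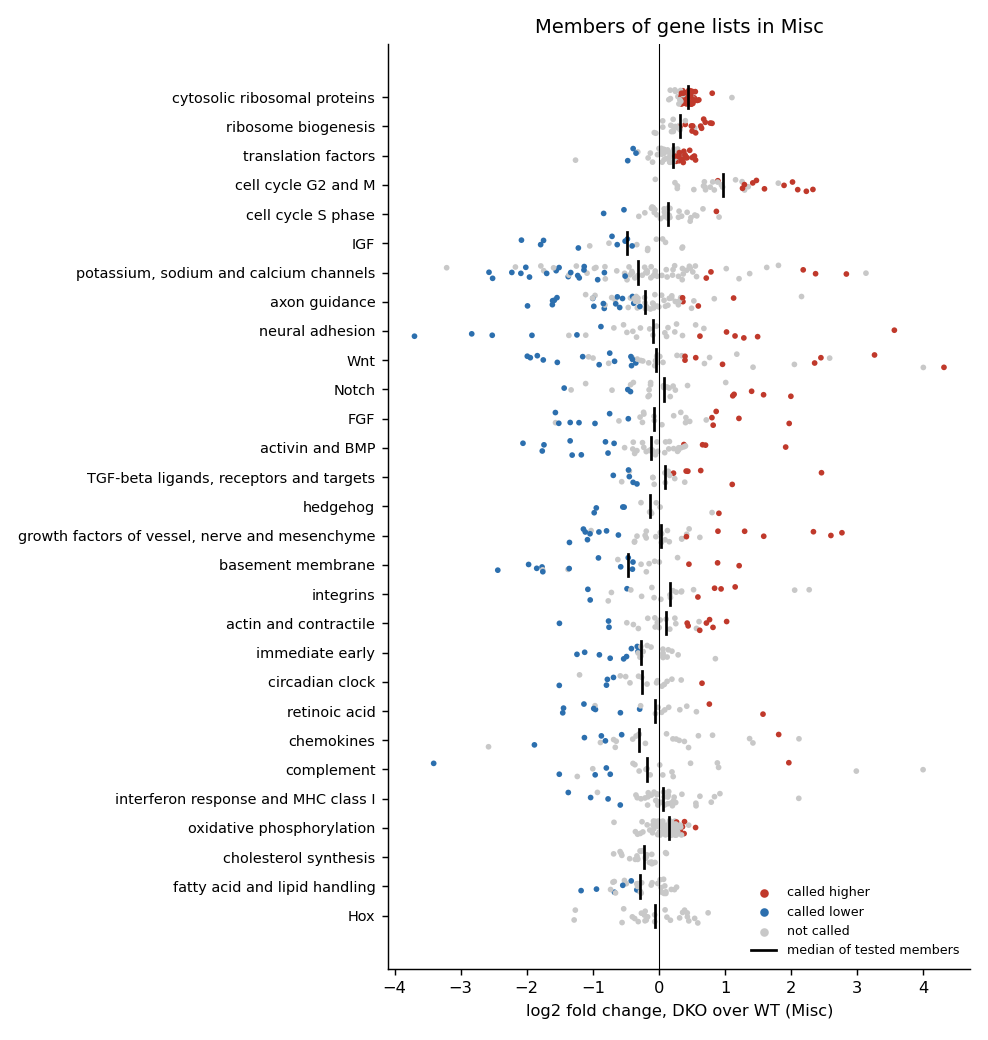
Log2 fold change (DKO over WT, Misc) of each tested member of 29 gene lists, with the median as a black bar. Red members were called higher, blue lower and grey were not called. Ribosomal proteins and G2 and M genes hold no blue point and IGF genes no red one, while Wnt, FGF and Notch genes spread to both sides of 0.

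Mitosis genes were low in both genotypes, and part of them rose in DKO. Of 31 genes of G2 and M phase, 11 rose and 0 fell, with a median of 0.96, while of 31 S phase genes 1 rose and 2 fell (median 0.13). Mki67, a marker of cycling cells, was at 4.73, 10.8, 5.51 and 6.99 CPM in DKO and 1.47, 1.18, 1.09 and 2.38 in WT (2.23 ± 0.45, adjusted p = 0.00244). Cyclin B1 (Ccnb1), which activates the mitotic kinase, was at 1.24, 1.32, 1.32 and 0.777 CPM in DKO and 0.177, 0.394, 0.0911 and 0.227 in WT (2.33 ± 0.53, adjusted p = 0.00277). Cdk1, the mitotic kinase itself, was at 1.87, 1.32, 1.44 and 1.17 CPM in DKO and 0.295, 0.316, 0.273 and 0.568 in WT (2.02 ± 0.49, adjusted p = 0.00492). None of the 3 overlapped, and cyclin B1 and Cdk1 stayed below 2 CPM in every library. The spindle protein Prc1 (1.29 ± 0.31) and the cytokinesis protein Anln (1.26 ± 0.30) rose as well. Cyclin D1 (Ccnd1), which acts in G1, moved the other way, at 4.73, 3.47, 5.99 and 5.18 CPM in DKO and 16.1, 13.4, 13.0 and 14.8 in WT (−1.57 ± 0.21, adjusted p = 1.16e-05). The inhibitor Cdkn1c fell from 94.8 ± 10.7 to 45.4 ± 9.60 CPM (−1.07 ± 0.21), as did the helicase subunit Mcm6 (−0.84 ± 0.21), while the origin factor Cdc6 rose (0.87 ± 0.19). The G2 and M list had 7 called members with the Y-linked covariate and 6 in a fit of the 8 Misc libraries alone.

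Promoters of G2 and M genes often hold CCAAT boxes and a cell cycle homology element, and the stretches before 5 of the genes called higher are shown to let these be seen. Sequences are from RefSeq on GRCm38.p6, read on the gene's strand, up to 120 bases ending just before the annotated gene, with CCAAT (or ATTGG on the other strand) and TTTGAA or TTTAAA (or TTCAAA on the other strand) in capitals. They lie at chr10:69352913-69353032 (Cdk1, minus strand), chr13:100786487-100786606 (Ccnb1, minus), chr7:122159315-122159434 (Plk1, plus), chr4:118437344-118437463 (Cdc20, minus) and chr11:99024200-99024319 (Top2a, minus).
Cdk1: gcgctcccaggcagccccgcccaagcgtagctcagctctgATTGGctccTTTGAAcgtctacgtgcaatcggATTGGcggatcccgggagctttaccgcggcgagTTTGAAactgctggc
Ccnb1: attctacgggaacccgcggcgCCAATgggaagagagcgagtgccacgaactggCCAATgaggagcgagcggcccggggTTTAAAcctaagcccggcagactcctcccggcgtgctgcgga
Plk1: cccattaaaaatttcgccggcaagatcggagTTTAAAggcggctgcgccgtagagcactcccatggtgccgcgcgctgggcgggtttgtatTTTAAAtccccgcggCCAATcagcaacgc
Cdc20: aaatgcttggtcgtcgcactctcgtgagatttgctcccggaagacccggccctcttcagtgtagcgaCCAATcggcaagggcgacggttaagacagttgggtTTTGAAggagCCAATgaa
Top2a: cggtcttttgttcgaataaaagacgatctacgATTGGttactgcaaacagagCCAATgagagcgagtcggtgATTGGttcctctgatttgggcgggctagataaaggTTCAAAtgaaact
Cdk1, Plk1, Cdc20 and Top2a were chosen after their values were seen. The kinase Plk1 (1.42 ± 0.43), the anaphase activator Cdc20 (0.89 ± 0.28) and topoisomerase 2 alpha (Top2a, 2.10 ± 0.51) were called higher. The call for Plk1 was lost with the Y-linked covariate (adjusted p = 0.203) and without DKO library 4 (0.117) or WT library 1 (0.0615) or 2 (0.0798). That for Cdc20 was lost with the covariate (0.285) and without DKO library 2 (0.091) or 4 (0.123) or WT library 1 (0.148) or 2 (0.0684), and also in a fit of the 8 Misc libraries alone (0.0527) or with a replicate block (0.0532). Of the 11 called genes, 10 had a promoter entry. Within 250 bases before the start, 9 of 10 held CCAAT and 7 of 10 held both CCAAT and TTTGAA or TTTAAA. Of 27 G2 and M genes with an entry, called or not, 21 held CCAAT and 11 both. Over all 32851 promoters, 33.8% held CCAAT, 25.2% TTTGAA or TTTAAA, and 8.78% both. The motifs do not overlap each other, and a match is a run of letters, not a shown binding site.

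Of 19 IGF system genes 9 fell, 0 rose and 10 did not pass, with a median of −0.48. Igfbp5, a binding protein that holds IGF in the matrix, was at 755, 554, 811 and 879 CPM in DKO and 3354, 2935, 1889 and 1883 in WT (−1.75 ± 0.20, adjusted p = 1.81e-06). Pappa2, a protease that frees IGF by cutting Igfbp5, was at 54.4, 30.8, 66.6 and 56.6 CPM in DKO and 250.5, 209, 150.4 and 109 in WT (−1.79 ± 0.33, adjusted p = 0.00143). WT libraries 1 and 2 were the highest for both, and neither gene overlapped between genotypes. Igfbp5 starts at 72858065 on chromosome 1, within 10 Mb of Des, and is among the 16 genes called lower there. The part of this position in its fall was not tested. The insulin receptor (Insr, −0.63 ± 0.12) and its adaptor Irs1 (−0.51 ± 0.11) also fell.

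Wnt genes moved in both directions, 8 of 46 higher and 13 lower (median −0.04). Of the secreted antagonists, Dkk2 was at 47.2, 33.9, 45.7 and 44.5 CPM in DKO and 165, 199, 156 and 160.1 in WT (−1.99 ± 0.24, adjusted p = 2.18e-05), and Sfrp1 at 13.3, 11.7, 17.5 and 12.2 and 46.5, 57.0, 43.9 and 48.8 (−1.84 ± 0.15, adjusted p = 2.23e-08). Frzb, a related antagonist, was at 20.5, 6.35, 7.55 and 10.2 CPM in DKO and 0.295, 1.02, 0.546 and 0.341 in WT (4.31 ± 0.42, adjusted p = 1.26e-07). Dkk2 and Sfrp1 fell while Frzb rose from near 0, with no overlap for any of them, and DKO library 1 held the most Frzb. The receptor Fzd9 fell (−1.95 ± 0.27). Of 12 hedgehog genes, 1 rose and 4 fell, among them the response gene and effector Gli1 (−0.98 ± 0.16, adjusted p = 8.71e-05), its partner Gli2 (−0.55 ± 0.12) and the co-receptor Cdon (−0.53 ± 0.14).

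Of the Notch genes, 5 of 27 rose and 3 fell (median 0.07), and a ligand, a receptor and target genes were among those that rose. The ligand Jag1 was at 50.0, 56.3, 54.4 and 55.9 CPM in DKO and 24.8, 23.7, 30.1 and 21.2 in WT (1.12 ± 0.10, adjusted p = 2.3e-08). The receptor Notch1 was at 53.3, 80.6, 51.6 and 66.3 CPM in DKO and 26.3, 21.4, 40.5 and 26.4 in WT (1.14 ± 0.18, adjusted p = 0.000179). The target Hey1, a transcriptional repressor, was at 22.9, 30.9, 25.4 and 24.7 CPM in DKO and 6.60, 6.07, 7.92 and 5.34 in WT (2.00 ± 0.12, adjusted p = 1.04e-10). All 3 were without overlap, and Heyl rose with them (1.58 ± 0.16). Notch2 (−0.13 ± 0.10, adjusted p = 0.445) and Notch3 (0.43 ± 0.24, adjusted p = 0.24) did not pass.

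**Figure D4:**
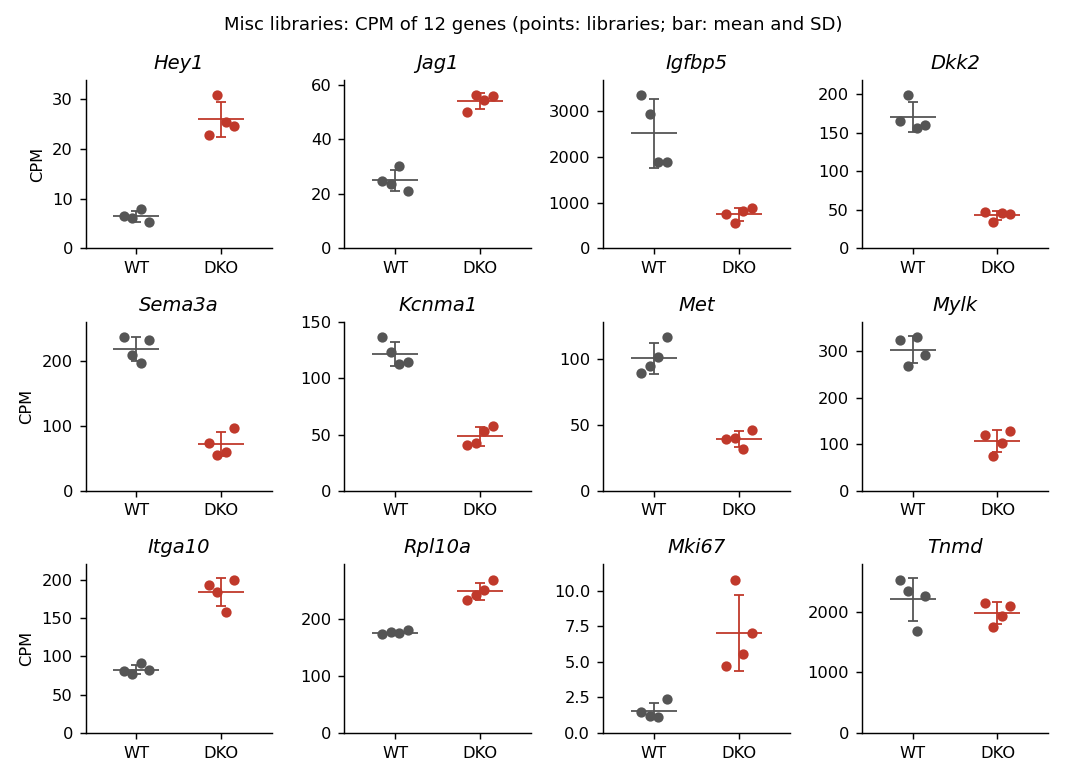
CPM of 12 genes in each Misc library (points), with the mean and SD of 4 libraries per genotype (bars), each axis starting at 0. Hey1, Jag1, Itga10, Rpl10a and Mki67 lie higher in DKO and Igfbp5, Dkk2, Sema3a, Kcnma1, Met and Mylk lower, all without overlap, while Tnmd overlaps.

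TGF-beta superfamily genes moved in both directions. Of 22 TGF-beta ligands, receptors, Ltbp genes and targets, 6 rose and 5 fell, and of 39 activin and BMP genes 4 rose and 9 fell. Tgfb1 rose from 25.7 ± 2.17 to 55.2 ± 4.98 CPM (1.11 ± 0.12, adjusted p = 2.44e-07) and Tgfb2 from 76.4 ± 4.65 to 118 ± 17.8 CPM (0.63 ± 0.11). Myostatin (Mstn), the activin-type ligand that limits muscle growth, was at 37.5, 36.2, 46.1 and 49.3 CPM in DKO and 16.9, 13.7, 7.10 and 6.13 in WT (1.92 ± 0.25, adjusted p = 1.69e-05). The BMP receptor Bmpr1b was at 18.3, 17.6, 16.9 and 21.2 CPM in DKO and 47.6, 48.7, 41.8 and 49.8 in WT (−1.34 ± 0.14, adjusted p = 3.59e-07), and both ligand Bmp7 (−2.06 ± 0.28) and the BMP antagonist Chrdl1 (−0.81 ± 0.11) fell. Of the Ltbp genes, Ltbp2, which is also on the list of elastic fibre genes, rose (2.46 ± 0.23) and Ltbp1 fell (−0.69 ± 0.11).

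FGF and other growth factor systems also changed in both directions. Of 27 FGF genes, 5 rose and 7 fell. Fgf1 (−1.57 ± 0.20, adjusted p = 1.48e-05), its receptor Fgfr2 (−1.34 ± 0.22) and the decoy receptor Fgfrl1 (−0.75 ± 0.12) fell, while Dusp6, a phosphatase induced by ERK signalling, rose from 72.2 ± 5.04 to 126 ± 10.5 CPM (0.80 ± 0.10). Of 34 growth factors and receptors of vessels, nerves and mesenchyme, 7 rose and 8 fell. Met, the receptor of hepatocyte growth factor, was at 39.2, 40.1, 31.6 and 46.5 CPM in DKO and 89.8, 95.0, 101 and 117 in WT (−1.35 ± 0.17, adjusted p = 7e-06). Gfra1, a co-receptor of GDNF, was at 73.0, 74.5, 65.8 and 51.9 CPM in DKO and 124, 156, 157 and 139 in WT (−1.12 ± 0.10, adjusted p = 4.68e-08). Both were lower in each DKO library than in any WT library. The neurotrophin Ntf3 (−1.14 ± 0.17) and the platelet-derived factor Pdgfd (−1.04 ± 0.17) fell too, and the angiopoietin receptor Tek, also an endothelial marker, fell from 63.9 ± 8.35 to 24.8 ± 3.85 CPM (−1.36 ± 0.14). Tek was a member of the endothelial sum, which was lower in DKO, and the 1 of its 12 markers that was called. That sum was 51.7 to 86.5 CPM in DKO and 96.6 to 138 in WT. Tek itself held much of it, so the sum is not independent of Tek. The part of endothelial cells in the Tek value was not tested.

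Axon guidance genes, used in connective tissue as well as in nerve, fell more often than they rose. Of 63 such genes, 16 fell and 4 rose (median −0.21). The secreted repellent Sema3a was at 74.4, 55.9, 60.4 and 97.4 CPM in DKO and 237, 210.4, 198 and 233 in WT (−1.61 ± 0.17, adjusted p = 2.09e-06), and the semaphorin receptor Plxnc1 at 10.3, 10.3, 9.83 and 7.12 and 27.9, 27.8, 27.2 and 26.7 (−1.54 ± 0.15, adjusted p = 1.38e-07). Neither overlapped. Sema3d (−1.58 ± 0.17) and the laminin-related netrin Ntn4 (−0.84 ± 0.11) fell with them. Of 31 neural adhesion genes, 6 rose and 6 fell. Neurexin 2 (Nrxn2, −2.52 ± 0.25) and the synaptic protein Lrrtm3 (−2.83 ± 0.40) fell, and Lrrn2 rose (1.49 ± 0.17). Of 17 cadherins 11.8% were called, against 18.7% of all genes tested. The mesenchymal cadherin Cdh11 (−0.53 ± 0.11) and Cdh19 (−2.31 ± 0.20) fell and 0 rose. Cdh19 is also a Schwann cell marker and a member of the Schwann cell marker sum, which was lower in DKO. The part of Schwann cells in its fall was not tested.

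Ion channel genes fell more often than they rose, 18 against 5 of 77 tested (median −0.32). Kcnma1, the pore of the large-conductance calcium-activated potassium channel, was at 40.6, 42.5, 53.3 and 57.5 CPM in DKO and 137, 124, 113 and 115 in WT (−1.33 ± 0.12, adjusted p = 2.35e-08). The voltage-gated potassium channels Kcna2 (−2.09 ± 0.23, adjusted p = 1.51e-06) and Kcng4 (−2.01 ± 0.24) also fell. Kcnmb2, an auxiliary subunit of the Kcnma1 channel, rose from 1.58 ± 0.451 to 11.6 ± 2.52 CPM, so pore and auxiliary subunit moved in opposite directions. Pannexin 1 (Panx1), which releases ATP, was at 8.59, 17.4, 14.1 and 14.5 CPM in DKO and 2.65, 2.37, 3.37 and 2.04 in WT (2.37 ± 0.22, adjusted p = 7.3e-08). Of 19 protease-activated and purinergic receptors 5 rose and 5 fell, among them the thrombin receptor F2r (from 184 ± 14.2 to 442 ± 43.9 CPM) and the ATP-gated P2rx7 (from 18.6 ± 1.21 to 53 ± 12.5 CPM), both higher. That list had 6 called members with the Y-linked covariate and without DKO library 2 or WT library 1. Of 17 RGS genes 4 rose and 2 fell, with Rgs16 (1.25 ± 0.16) and Rgs2 (0.55 ± 0.11) higher beside Rgs4 and Rgs17 lower (−2.11 ± 0.40).

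Of 255 solute carriers, 20 rose and 35 fell, a share of 21.6% called, near the 18.7% of all genes tested. The arginine transporter Slc7a2 was at 15.4, 32.8, 30.8 and 27.3 CPM in DKO and 6.01, 7.02, 5.46 and 4.43 in WT (2.20 ± 0.19, adjusted p = 4.16e-08). The bicarbonate transporter Slc4a8 rose (2.51 ± 0.29), and the nucleoside transporter Slc29a3 (−1.06 ± 0.11) and Slc43a3 (−0.99 ± 0.13) fell.

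Adhesion and cytoskeleton genes changed in both directions. Itga10, a collagen-binding integrin, was at 193, 184, 158 and 201 CPM in DKO and 80.9, 76.6, 91.3 and 82.4 in WT (1.15 ± 0.10, adjusted p = 2.3e-08), while another collagen receptor, Itga2, fell from 159.6 ± 16.4 to 75.8 ± 15.9 CPM (−1.08 ± 0.23). Of 23 integrins 4 rose and 3 fell. Of 25 actin and contractile genes 7 rose and 3 fell. Mylk, the kinase of smooth muscle myosin light chain, was at 121, 74.4, 103 and 129 CPM in DKO and 324, 268, 329.6 and 291 in WT (−1.51 ± 0.17, adjusted p = 2.9e-06). Tagln2, an actin-binding protein, was at 211, 253, 263 and 242 CPM and 123, 125, 118 and 110.5 (1.02 ± 0.10, adjusted p = 8.02e-08), and zyxin (Zyx), a focal adhesion protein, at 81.9, 91.0, 84.1 and 83.7 and 41.8, 46.8, 53.7 and 51.4 (0.82 ± 0.09, adjusted p = 2.82e-07). Mylk was lower and Tagln2 and Zyx higher in each DKO library than in any WT library. Tropomyosin 4 (Tpm4, 0.72 ± 0.11) and the intermediate filaments vimentin (Vim, 0.71 ± 0.10, adjusted p = 2.8e-05) and nestin (Nes, 1.20 ± 0.21) rose. Of 23 genes of the dystrophin complex 1 rose and 5 fell, utrophin (Utrn, −0.43 ± 0.09) and delta-sarcoglycan (Sgcd, −0.64 ± 0.14) among them.

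Matrix genes beyond the type I collagens moved in both directions. Col22a1, a collagen of the muscle-tendon junction, was at 916, 747, 759.9 and 956 CPM in DKO and 236, 186, 169 and 209.8 in WT (2.08 ± 0.27, adjusted p = 4.54e-05). Col15a1, a basement membrane collagen, was at 1181, 949, 1096 and 789.6 CPM in DKO and 1802, 2038, 2046 and 1688 in WT (−0.92 ± 0.13, adjusted p = 1.52e-05), whereas the related Col18a1 rose from 299.5 ± 21.8 to 554 ± 84.4 CPM (0.89 ± 0.12). None of the 3 overlapped. The short-chain Col8a2 (−1.14 ± 0.19) and the membrane collagen Col23a1 (−1.18 ± 0.15) fell, as did tenascin N (Tnn, −3.37 ± 0.47). Hemicentin 1 (Hmcn1, 1.67 ± 0.13) rose. The crosslinking enzymes Loxl1 (from 169.5 ± 12.3 to 349.7 ± 26.7 CPM) and Loxl2 (from 1016 ± 92.0 to 1479 ± 88.3 CPM) rose among 29 collagen processing genes, of which 5 rose and 10 fell. Timp1, an inhibitor of metalloproteinases, was at 236, 268, 206 and 278 CPM in DKO and 89.3, 90.0, 87.9 and 87.9 in WT (1.48 ± 0.11, adjusted p = 4.83e-09), and Timp3 fell from 1279 ± 52.4 to 826 ± 58.6 CPM. Serpine2, a thrombin inhibitor, fell (−1.40 ± 0.28), and the intracellular protease inhibitors Serpinb8 (2.54 ± 0.25) and Serpinb1a (2.05 ± 0.21) rose.

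The tendon genes themselves did not move as one. Of 15, 3 rose and 5 fell (median −0.53). Tnmd overlapped between genotypes, at 2138, 1744, 1930 and 2100 CPM in DKO and 2532, 2339, 1689 and 2253 in WT (−0.16 ± 0.20, adjusted p = 0.643). Scx was at 138, 93.0, 143 and 97.6 CPM in DKO and 81.7, 69.0, 67.7 and 94.1 in WT (0.59 ± 0.15, adjusted p = 0.00784), and it rose although DKO library 2 lay below WT library 4. Mkx fell without overlap, at 123, 114, 113 and 104 CPM in DKO and 188, 171, 175 and 197 in WT (−0.69 ± 0.12, adjusted p = 0.000289). Of 12 cartilage and bone genes 1 rose and 4 fell, and 8 were called without DKO library 1. Alkaline phosphatase (Alpl, −1.70 ± 0.26, adjusted p = 0.000164), the cartilage factor Sox9 (−0.59 ± 0.12) and matrilin 3 (Matn3, −1.53 ± 0.23) fell, and the bone factor Runx2 rose (0.65 ± 0.16). Summed cartilage and bone markers, of which these are members, were lower in DKO, and the part of other cells in these values was not tested. Of 15 progenitor genes 3 rose and 1 fell (median −0.11). Microfibril protein Mfap5 (from 73.9 ± 6.33 to 274 ± 32.5 CPM), dermatopontin (Dpt, from 309.7 ± 44.7 to 575 ± 24.9 CPM) and Pi16 (2.82) were higher. Cd55 was lower (−0.96), a call lost with the Y-linked covariate (adjusted p = 0.0646). Among those that did not pass, Smoc2 (−0.80), Sema3c (−0.72) and Dpp4 (−0.71) lay below 0, and Lum (0.30) and Gsn (0.25) above. In a fit of the 8 Misc libraries alone, 10 of the progenitor genes were called. Of 18 muscle fibre genes 6 rose, among them skeletal actin (Acta1) at 26.5, 26.3, 22.5 and 18.4 CPM in DKO and 9.78, 9.23, 10.9 and 8.63 in WT (1.28 ± 0.28, adjusted p = 0.0041). Summed muscle fibre markers, of which these are members, were higher in DKO. The part of muscle fibre RNA in these values was not tested.

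Of 26 immediate early genes, which are also induced when tissue is dissociated, 9 fell and 0 rose (median −0.27). Fosb, a partner in the AP-1 dimer, was at 1221, 886, 855 and 1273 CPM in DKO and 2423, 2686, 2448 and 2453 in WT (−1.24 ± 0.14, adjusted p = 5.65e-07), and Fos at 3961, 3342, 3291 and 3925 and 5158, 5063, 5287 and 5515 (−0.53 ± 0.11, adjusted p = 0.00115). Neither overlapped, and the antiproliferative Btg2 (−1.12 ± 0.12) and the RNA-destabilising Zfp36 (−0.74 ± 0.14) fell with them. Of 19 clock genes 1 rose, the activator Arntl (0.65 ± 0.14), and 4 fell, among them the output factors Hlf (−1.51 ± 0.14, adjusted p = 9.12e-08) and Tef (−0.79 ± 0.16) and the repressor Bhlhe40 (−0.78 ± 0.14). With the Y-linked covariate 9 clock genes were called. Klf9, a factor induced by glucocorticoids, was at 144, 195, 134 and 178 CPM in DKO and 376, 351, 322 and 310.4 in WT (−1.06 ± 0.12, adjusted p = 4.45e-07). Of 19 retinoic acid genes 2 rose and 7 fell, with the retinoic acid carrier Crabp1 (−1.46 ± 0.26) and receptor Rxrg (−1.44 ± 0.33) lower. The hindlimb factor Tbx4 fell (−1.16 ± 0.17), and Foxc1 (1.07 ± 0.17) and Sox11 (1.73 ± 0.26) rose. Of 27 tested Hox genes, edgeR and DESeq2's Wald test called 0, and 6 had an unadjusted edgeR p below 0.05. In the 8 Misc libraries alone, with a replicate block or a length offset, or without DKO library 1 or 3, 1 was called.

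Some heat shock and lysosome genes rose. Called members made up 35.0% of heat shock, 22.9% of lysosome and 23.3% of antioxidant genes, against 18.7% of all genes tested. Of 20 heat shock genes 6 rose and 1 fell, with the near-identical pair Hspa1a (from 7771 ± 1262 to 13180 ± 2135 CPM) and Hspa1b (from 8946 ± 1279 to 15570 ± 2464 CPM) highest, between which counting could split reads. The small heat shock protein Hspb8 rose (0.69 ± 0.13). Of 35 lysosome genes 6 rose and 2 fell, including the protease legumain (Lgmn, 1.13 ± 0.17, adjusted p = 5.28e-05), cathepsin D (Ctsd, 0.47 ± 0.10) and Hexa (0.57 ± 0.11). Of 30 antioxidant and metal-binding genes 5 fell and 2 rose, with Nqo1 (−1.25 ± 0.23) and the secreted peroxidase Gpx3 (−0.77 ± 0.16) lower. The apoptosis effector Bax rose (0.62 ± 0.12).

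Among metabolic lists the share of members called ran from 0 of 24 for cholesterol synthesis to 8 of 23 for glycolysis. It was 8.0% for oxidative phosphorylation and 18.2% for lipid genes, against 18.7% of all genes tested. Of 75 oxidative phosphorylation genes 6 rose and 0 fell (median 0.15), and 1 was called with the Y-linked covariate or without DKO library 1. Of 24 cholesterol synthesis genes edgeR and DESeq2's Wald test called 0 and 1 had an unadjusted edgeR p below 0.05, with a median of −0.23 and a lowest value of −0.69. With a replicate block 3 of them were called, with the Y-linked covariate 2, and with a length offset or without DKO library 4, 1. Of 33 lipid genes 6 fell, among them apolipoprotein D (Apod, from 1888 ± 104 to 980.4 ± 112 CPM) and the elongase Elovl5 (−0.55 ± 0.11), and 3 were called without WT library 3. Lipoprotein lipase (Lpl, −0.67 ± 0.17, adjusted p = 0.0061), which frees fatty acids, lost its call with the Y-linked covariate (adjusted p = 0.0711). Lpl is 1 of the 5 adipocyte list genes tested, whose sum was lower in DKO. The adipocyte markers Adipoq and Plin1 had 0 to 2 and 0 counts in the Misc libraries. The part of adipocytes in the Lpl value was not tested. Of 20 TCA cycle genes 3 rose and 2 fell (median 0.02), and 2 were called with the Y-linked covariate. Of 23 glycolysis genes 4 rose and 4 fell, and 5 were called without DKO library 4. Among them the phosphofructokinase Pfkp rose (0.64 ± 0.12) and lactate dehydrogenase B (Ldhb) fell (−0.67 ± 0.15). The cystine transporter Slc7a11 fell (−1.0 ± 0.26).

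Immune genes changed in both directions. Of chemokine, complement and interferon response genes, 22.2%, 26.1% and 9.52% were called, against 18.7% of all genes tested. Cx3cl1, a membrane-bound chemokine, was at 25.8, 32.1, 32.0 and 34.1 CPM in DKO and 8.72, 8.91, 9.02 and 8.63 in WT (1.81 ± 0.16, adjusted p = 4.06e-08), the 1 chemokine gene of 27 that rose, while 5 fell, Ccl11 (from 342 ± 52.3 to 187 ± 32.7 CPM) and the scavenger receptor Ackr3 (−0.56 ± 0.11) among them. Of 23 complement genes 5 fell, including vitronectin (Vtn, from 82.4 ± 10.2 to 28.9 ± 6.99 CPM). The IL-33 receptor Il1rl1 rose (2.18 ± 0.39, adjusted p = 0.000937), and the LIF receptor Lifr fell (−0.78 ± 0.10). Of 42 interferon response and MHC class I genes 0 rose and 4 fell, led by Irf1 (from 534 ± 38.4 to 261 ± 28.1 CPM), and 2 were called without DKO library 3 or WT library 3. Of 13 tested leukocyte markers edgeR and DESeq2's Wald test called 0, 1 had an unadjusted edgeR p below 0.05, and 1 was called without DKO library 3. Their median log2 fold change was 2.05, which rests in part on few counts. Itgam had 0 to 4 counts in DKO and 0 to 1 in WT, and Cd74 had 6 to 30 and 4 to 6. Lyz2 had 14 to 34 and 13 to 26. Cd68, with 79 to 167 counts in DKO and 117 to 160 in WT, stood at 0.47.

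The DKO effect in Misc was then set against that in FAP, the other mesenchymal population, through the interaction in the same fit. In FAP 1520 genes were called (10.7%). The 2 effects differed for 396 genes (2.79%), 202 with Misc above FAP and 194 below. With replicate number as a block, which pairs FAP with Misc libraries, 1246 differed, and the differences given here are from the fit without the block. The sex-linked transcripts were arranged the same way in FAP, with DKO library 3 alone holding Y-linked transcripts among the 4 DKO libraries. Of genes called in both, 781 moved the same way and 33 oppositely.

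The named genes whose effects differed included matrix, receptor and cytoskeleton genes. Aspn (asporin), a collagen-binding proteoglycan, changed by 2.86 ± 0.22 in Misc and 0.49 ± 0.21 in FAP (difference 2.37 ± 0.30, adjusted p = 0.000108). Tenascin C (Tnc) fell in Misc from 1877 ± 115 to 1395 ± 179 CPM (−0.43 ± 0.11) and rose in FAP (2.16 ± 0.12, difference −2.58 ± 0.17, adjusted p = 9.01e-10). Thbs4 rose in both, by 0.97 ± 0.17 in Misc and 3.26 ± 0.18 in FAP (difference −2.29 ± 0.24, adjusted p = 3.18e-06). Bmpr1b fell in Misc and rose in FAP (0.89 ± 0.21, difference −2.23 ± 0.25), and the matrix protein Crtac1 changed by −1.68 ± 0.20 and 0.73 ± 0.41. Zyx rose in Misc and stood at −0.47 ± 0.08 in FAP (difference 1.28 ± 0.12, adjusted p = 9.51e-07). Jag1 (0.06 ± 0.09 in FAP, difference 1.06 ± 0.13) and Kcnma1 (0.00 ± 0.20, difference −1.34 ± 0.23) moved in Misc with values near 0 in FAP. The enzyme Ddah1 had the largest negative difference of the genes named by the rule (−2.71 ± 0.34), and Frzb had the largest positive one (3.45 ± 0.62). Pi16 and Fmo2 rose in Misc and were at −0.57 ± 0.46 and −0.10 ± 0.24 in FAP (differences 3.39 ± 0.68 and 2.77 ± 0.38). Prkg2 (0.16 ± 0.19 in Misc, −2.0 ± 0.21 in FAP), Kcnab1 (0.57 ± 0.23, −1.72 ± 0.30) and C1qtnf3 (−0.56 ± 0.20, 2.00 ± 0.25) did not pass in Misc but differed from FAP.

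**Figure D5:**
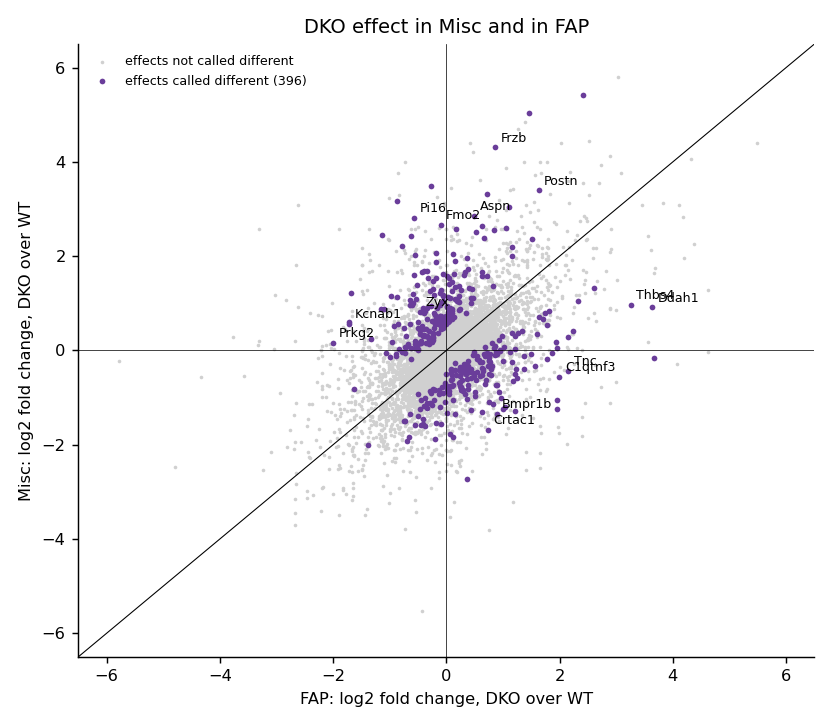
Log2 fold change of DKO over WT in Misc against that in FAP, 1 point per tested gene, with the line of equality. Purple points are the 396 genes whose effects were called different, among them Aspn and Frzb above the line and Tnc, Thbs4 and Ddah1 below it.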

How the data were processed

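RNA of 20 libraries was sequenced as 100-base paired reads and mapped to mm10 with OSA and RefSeq annotation, per the series design text. The submitters' processing notes list DESeq2, with no version. What the authors deposited are raw gene counts. Read counting and strand use were not given in the sources used here, so overlapping and antisense genes cannot be told apart. Of 24393 genes, 24312 matched the RefSeq table of GRCm38.p6 by Entrez identifier, 52 damaged symbols were restored, and 14179 passed edgeR's filterByExpr (minimum count 10, minimum total 15). Counts were scaled by TMM, and CPM use these scaled totals. A robust quasi-likelihood model was fitted to all 6 groups in edgeR 4.0.16 (R 4.3.3) without a block. The contrasts were Misc DKO minus WT and its difference from FAP DKO minus WT, with Benjamini-Hochberg adjustment over all genes and calls at 0.05. Standard errors were taken as |log2 fold change| / √F. Misc totals of 8360658 to 17730111 counts set the precision, and simulated counts with these depths (14023 genes) gave back 94% of 100 genes changed 2-fold, 100% of 100 changed 4-fold, and 7 unchanged genes. The changed genes were drawn from those above 5 CPM in Misc, so the recovery does not cover lower genes.

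The libraries were chosen by title, and the 72 gene lists, the naming rule and the tests were written with earlier results of these data known. The rule named the 12 higher and 12 lower genes with the largest fold change among called genes with mean CPM of at least 5, no overlap and no predicted name, the 8 and 8 with the largest difference in CPM, up to 4 called members of each list by p, and the 6 and 6 that differed most from FAP. A set of 17 genes was added whatever its result, and 4 mitosis genes after their values were seen. Lists are described by counts and medians, without a set test. Same-numbered FAP and Misc libraries deviated together (the 4 DKO pairs at a correlation of 0.18 to 0.34, the 4 WT pairs at 0.18 to 0.23, and other numbers at −0.18 to 0.06), so by this check alone the numbers pair FAP with Misc. The differences from FAP come from the fit without a block, and the blocked count is given beside them. Alternatives were DESeq2 1.42.0 size factors and Wald test, no filter, the 8 Misc or 16 FAP and Misc libraries alone, a replicate block (in those 8 or 16), a transcript-length offset, thinned counts, a 0.01 threshold and each library left out. A Y-linked covariate was added after the data were seen. Promoter sequences came from RefSeq, 250 bases before each start. Results for some genes are not reported here.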

Additional observations from a re-analysis of the deposited data

Results flagged for a closer look

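The DKO effect in Misc differed from that in FAP for 54 of the 194 genes given in the text. The interaction test was used, at an adjusted p below 0.05. Over all 14179 genes tested, 396 differed (2.79%). Many of the 194 were named for their call in Misc, and some because they differed most from FAP. The share among them thus depends on how they were chosen, and no conclusion is drawn from it. Each value here is the log2 effect in Misc minus that in FAP. Misc lay above FAP for Frzb (3.45), Pi16 (3.39), Fmo2 (2.77), Cdk1 (2.58), Aspn (2.37), Kcnab1 (2.28), Prkg2 (2.16), Has1 (2.01), Slc4a8 (1.99), Serpinb1a (1.94) and Postn (1.76). It also lay above FAP for Mfap5 (1.74), Panx1 (1.71), Serpinb8 (1.70), Sox11 (1.35), Zyx (1.28), Jag1 (1.06), Hmcn1 (1.04), Slc7a2 (1.04), Itga10 (0.93), Heyl (0.87) and Hspb8 (0.87). The smaller positive differences were Hey1 (0.84), Loxl1 (0.84), Dpt (0.83), Tagln2 (0.79), Col18a1 (0.64), Tgfb1 (0.64), Tgfb2 (0.59), Loxl2 (0.58) and Vim (0.57). Misc lay below FAP for Ddah1 (−2.71), Tnc (−2.58), C1qtnf3 (−2.55), Crtac1 (−2.41), Thbs4 (−2.29), Bmpr1b (−2.23), Col8a2 (−1.97), Slc7a11 (−1.97), Met (−1.50), Plxnc1 (−1.35), Kcnma1 (−1.34) and Sfrp1 (−1.18). The smaller negative differences were Fgf1 (−1.16), Sema3d (−1.13), Ldhb (−0.92), Bhlhe40 (−0.84), Col15a1 (−0.79), Hlf (−0.79), Cdh11 (−0.78), Col23a1 (−0.78), Gfra1 (−0.78), Fgfrl1 (−0.75) and Chrdl1 (−0.57).

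In 28 of 388 groups of 4 Misc libraries, the highest or lowest library stood apart from the other 3, by a gap that took nearly the whole range of the group. Chance flags about 1 in 20 groups. Each value here is the gap as a share of the range in CPM. DKO library 1 was highest for Dpysl5 (0.897), Fzd9 (0.848) and Susd5 (0.895). DKO library 2 was highest for Slc7a11 (0.92) and lowest for Hexa (0.841). DKO library 3 was highest for Ddx3y (0.999), Eif2s3y (0.997), Kdm5d (1), Rgs17 (0.905) and Uty (0.994) and lowest for Rxrg (0.899) and Xist (0.836). DKO library 4 was highest for Pdgfd (0.855), Tgfb1 (0.835) and Thbs4 (0.887) and lowest for Ccnb1 (0.863) and Plxnc1 (0.843). WT library 1 was highest for Utrn (0.916) and lowest for Bmp7 (0.873) and Slc7a11 (0.846). WT library 2 was highest for Dpt (0.845), Fosb (0.886) and Zfp36 (0.846). WT library 4 was highest for Cdk1 (0.856) and Col1a1 (0.93) and lowest for Col3a1 (0.853), Ldhb (0.862) and P2rx7 (0.846). The Y-linked genes and Xist are those by which DKO library 3 differed in sex-linked transcripts.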

How the results depend on the processing

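The 2652 genes called between Misc DKO and WT numbered 2414 to 2845 with DESeq2 size factors, DESeq2's Wald test, no filter, the 8 Misc libraries alone, a transcript-length offset or thinned counts, and none of the 2652 changed sign under these or with any library left out. With each library left out in turn, 2002 to 2560 were called, 861 to 1194 higher (861 without WT library 1), 1041 to 1366 lower, and 648 to 822 at least 2-fold. At an adjusted p below 0.01, 1473 were called, 718 higher and 755 lower. Higher genes made up 48.9% of calls, 43.6% with no filter and 43 to 50.4% with a library left out. With replicate number as a block in the 8 Misc libraries 2248 were called. Same-numbered DKO and WT libraries did not deviate together (correlation −0.16 to 0.03, against −0.09 to 0.11 for other numbers, with 0 of 4 best with its own number). This check found no pairing of DKO with WT by number, but with 4 pairs it cannot exclude one. For the difference from FAP, 396 genes became 590 with the 16 FAP and Misc libraries alone, 1246 with the replicate block added to these, 555 with the Wald test and 286 to 379 with a library left out. Of 280 named genes, the Y-linked covariate, chosen after seeing the data, ended 25 calls, the block 16, the length offset 11 and single libraries 12 to 20 each. Genes under about 1 CPM rest on few counts, and the shallower DKO libraries limit them most.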
